A study of Mus musculus with 6 samples.

Results

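The genes described here are 10 endothelial identity genes, Pecam1, Cdh5, Cldn5, Esam, Tek, Tie1, Eng, Emcn, Vwf and Erg, each taken as the row of the deposited table that carries its symbol. All 10 were found among the 12491 genes of the table, and all 10 were above 0 in each of the 6 libraries. The libraries were made from poly(A) RNA of the mouse lacrimal gland (LG), which secretes the aqueous part of the tear film, with 3 libraries in the T2DM group and 3 in the vehicle group. T2DM mice were male C57BL/6 mice that received a high-fat diet and then streptozotocin, a toxin of pancreatic beta cells, and vehicle mice were male C57BL/6 mice on a normal diet that received citrate buffer. Diet and injection therefore change together between the groups. The labels give an age of 24 weeks for both groups and also 24 weeks after treatment for the T2DM group. In the paper, weeks of high-fat diet came before streptozotocin and 24 weeks on the diet followed it. By that schedule the T2DM mice were older than 24 weeks, so the age on the labels is in doubt. The sources do not say if each library represents 1 mouse or a pool, so the p-values measure only the spread between these libraries. Values are FPKM, fragments per kilobase of transcript and per 1000000 mapped fragments, and the number of reads behind them is not known.

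Endothelial cells line blood and lymph vessels, form the barrier between blood and gland, and in a secretory gland bring the water and solutes from which the secretion is made. Their identity is kept by transcription factors of the ETS family, among them Erg, which is known to sustain expression of junction genes such as Cdh5 and Cldn5. Junction proteins seal one endothelial cell to the next, the Tie and endoglin receptors pass on signals that stabilise vessels, and von Willebrand factor is stored in the cells and released at injury. In RNA of a whole gland, fewer endothelial cells and less RNA per cell cannot be told apart.

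None of the 10 genes passed the test at a limma adjusted p under 0.05, in either direction. Among all 12135 genes tested, which averaged 0.5 FPKM or more in the T2DM or the vehicle group, 10.5% were higher and 1.70% were lower at this threshold (1271 and 206 genes). This lopsided split depended on the scaling, with 477 genes higher and 481 lower under median-of-ratios scaling, 446 and 400 under quantile normalization and 3470 and 104 under TPM. The number of calls also fell when single libraries were left out. It was 347 higher and 86 lower without vehicle replicate 1, 199 and 53 without vehicle replicate 2, and 25 and 16 without vehicle replicate 3. At an unadjusted p under 0.05, the tight junction gene Cldn5, the transcription factor gene Erg and the receptor gene Tie1 were higher and none was lower, beside 28.5% higher and 4.57% lower among all genes tested. The same 3 genes were the only members whose T2DM libraries all lay above all vehicle libraries, beside 33.8% of all genes tested, and no member lay wholly below, beside 6.10% of all genes. A count of 3 of 10 is therefore close to the background. With a linear model without moderation, 3 members were higher and 0 lower at an unadjusted p under 0.05, beside 24.4% higher and 4.02% lower among all genes tested, and 0 of all genes tested passed the adjusted p.

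Over the 10 genes, the median log2 fold change was 0.10 on the log2(FPKM + 1) scale, beside 0.16 for all genes tested. The median ratio of mean FPKM, T2DM over vehicle, was 1.16 for the members and 1.15 for all genes. A positive log2 fold change was found in 9 of the 10 genes, and 5 lay above the median of all genes. The 10 genes summed to 18.1, 12.2 and 18.2 FPKM in the T2DM libraries, against 10.5, 14.4 and 13.5 FPKM in the vehicle libraries. T2DM replicate 2 lay within the range of the vehicle group, and the other 2 T2DM libraries lay above it.

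**Figure D1:**
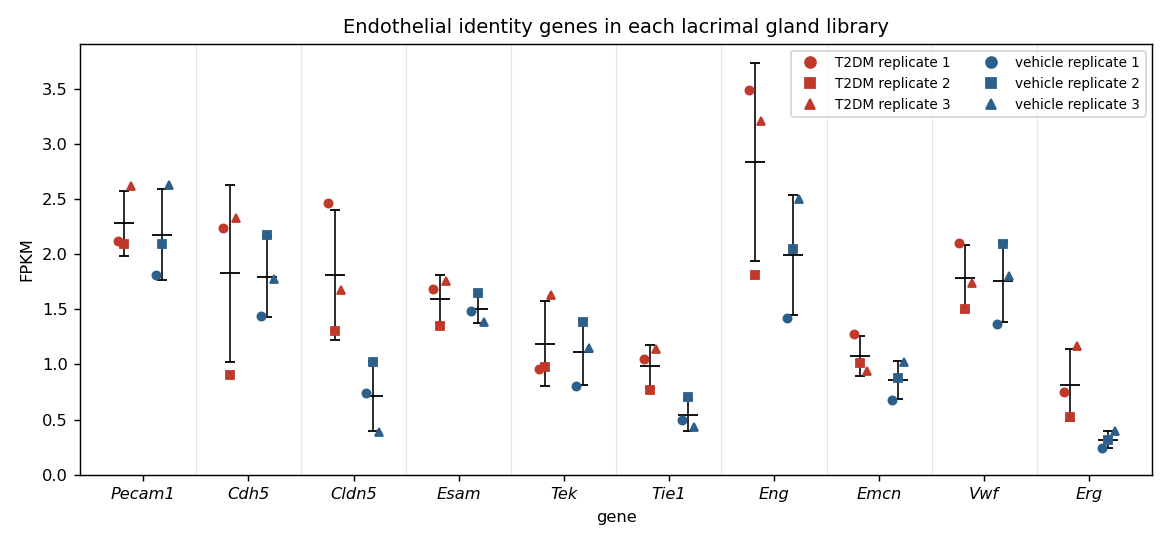
FPKM (vertical axis) of the 10 endothelial identity genes (horizontal axis) in each library, T2DM in red and vehicle in blue, with the symbol giving the replicate, the horizontal bar the group mean and the error bar the SD (n = 3 per group). Cldn5, Tie1 and Erg are the 3 genes whose groups do not overlap, and Eng, at 1.81 to 3.49 FPKM in the T2DM group, has the highest single value.

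All 10 genes were expressed at low levels. By mean FPKM over the 6 libraries the order was Eng at 2.41, Pecam1 at 2.23, Cdh5 at 1.81, Vwf at 1.77, Esam at 1.55, Cldn5 at 1.26, Tek at 1.15, Emcn at 0.969, Tie1 at 0.763 and Erg at 0.566. Eng stood at percentile 31.8 of the genes tested and Erg at percentile 4.19. Of the 9 neighbouring pairs in this order, only Tie1 over Erg differed by more than the SD of the difference within libraries (0.55 ± 0.47 on the log2 FPKM scale, higher in 5 of 6 libraries). The place of Cldn5 in the order differed most between the groups, as it was number 4 in the T2DM group and number 8 in the vehicle group. FPKM was also multiplied by the joined length of all annotated exons of the gene. By this measure Cldn5 amounted to 2.57 fragments per 1000000 in the T2DM group and 1.01 in the vehicle group. Erg amounted to 2.81 and 1.11, and Vwf to 28.6 and 28.2. The joined exons of Vwf span 16064 bases over 11 annotated transcripts, those of Erg 3466 over 8 and those of Cldn5 1416 over 1. Single transcripts can be shorter than the joined exons, so the values of Vwf and Erg may be too high. Cldn5 and Erg thus rest on fewer fragments than Vwf does.

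Promoter sequences of RefSeq (GRCm38.p6) were matched to 6 of the 10 genes, with 8 promoters in all, and the 250 bases before the transcription start were searched on both strands. Those of Cldn5 and Erg are shown because the libraries of these genes did not overlap between the groups, and that of Eng because it is the member with the highest mean level. They lie at chr16:18776597-18776846 on the plus strand for Cldn5, chr16:95586594-95586843 on the minus strand for Erg (the outermost of its 3 promoters) and chr2:32646345-32646594 on the plus strand for Eng. Capitals mark GGAAG, the core of ETS factor motifs with its flank, or its reverse complement CTTCC.
Cldn5: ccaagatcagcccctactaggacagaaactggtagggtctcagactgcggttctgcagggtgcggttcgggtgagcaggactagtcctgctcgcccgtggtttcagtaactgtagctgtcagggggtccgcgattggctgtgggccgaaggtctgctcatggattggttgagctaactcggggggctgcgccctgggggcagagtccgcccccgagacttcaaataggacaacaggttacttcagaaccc
Erg: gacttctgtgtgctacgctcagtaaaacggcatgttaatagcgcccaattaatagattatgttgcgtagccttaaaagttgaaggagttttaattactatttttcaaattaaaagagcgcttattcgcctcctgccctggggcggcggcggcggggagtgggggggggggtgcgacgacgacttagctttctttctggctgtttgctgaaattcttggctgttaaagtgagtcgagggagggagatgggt
Eng: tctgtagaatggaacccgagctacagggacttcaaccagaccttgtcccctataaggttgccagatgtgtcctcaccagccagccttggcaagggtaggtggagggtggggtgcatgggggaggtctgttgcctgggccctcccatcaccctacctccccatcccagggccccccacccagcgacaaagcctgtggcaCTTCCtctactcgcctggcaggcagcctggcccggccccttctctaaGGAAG

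The letters GGAAG or CTTCC occur 2 times in the Eng window and 0 times in those of Cldn5 and Erg shown. Of the 8 promoters, 5 hold GGAAG, beside 64.1% of the 32851 promoters of the table. The longer ETS motif CCGGAAGT, which contains GGAAG, is in 0 of 8 (2.88% of all promoters), the GATA motif AGATAA is in 1 of 8 (9.99%), and the SOX motif ACAAAG is in 2 of 8 (16.5%), one of them that of Eng. The window of Tie1 holds 6 matches to GGAAG, but it overlaps the first exon of the GENCODE model and is not shown. These matches describe letters in a window and do not locate bound sites.

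The junction genes split into 1 gene with a large ratio and 3 with ratios close to 1. Cldn5 (chromosome 16, 18776847 to 18778260, plus strand, GRCm38) encodes claudin-5, the main tight junction claudin of endothelium, and has 1 annotated transcript. It was at 2.46, 1.31 and 1.67 FPKM in the T2DM libraries, against 0.741, 1.02 and 0.387 FPKM in the vehicle libraries. All T2DM values lay above all vehicle values, although T2DM replicate 2 was only 1.31 FPKM and vehicle replicate 2 reached 1.02 FPKM. Its group mean was 1.81 ± 0.591 FPKM in the T2DM group and 0.715 ± 0.317 FPKM in the vehicle group (SD, n = 3 each), a ratio of 2.54. The log2 fold change was 0.71 (SE 0.19, limma adjusted p = 0.0506) on the log2(FPKM + 1) scale and 1.39 (limma adjusted p = 0.0567) on the log2(FPKM + 0.01) scale, which is closer to the plain ratio. The adjusted p was 0.0145 to 0.157 over 18 alternatives and under 0.05 in 3 of them. Among these 3 was the filter of 1 FPKM, which Cldn5 passed only through the T2DM group.

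Pecam1 (chromosome 11, 106654217 to 106750628, minus strand) encodes CD31, an adhesion molecule of endothelial contacts that platelets and leukocytes also carry. It was at 2.12, 2.09 and 2.62 FPKM in the T2DM libraries, against 1.81, 2.09 and 2.63 FPKM in the vehicle libraries. The groups overlap almost fully. The ratio of means was 1.05, and on the log2(FPKM + 0.01) scale its 95% interval ran from 0.783 to 1.42 as a ratio (limma adjusted p = 0.810 on the log2(FPKM + 1) scale).

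Cdh5 (chromosome 8, 104101625 to 104144511, plus strand) encodes VE-cadherin, the cadherin of endothelial adherens junctions. It was at 2.24, 0.904 and 2.33 FPKM in the T2DM libraries, against 1.43, 2.17 and 1.78 FPKM in the vehicle libraries. T2DM replicate 2 was the lowest of the 6 libraries and T2DM replicates 1 and 3 were the highest, so that the spread within the T2DM group covers the vehicle group. The fitted log2 fold change was -0.02 (SE 0.22, limma adjusted p = 0.960), and it was 0.24 without T2DM replicate 2. The gene overlaps the antisense gene Gm29682.

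Esam (chromosome 9, 37528078 to 37538319, plus strand) encodes an immunoglobulin-like adhesion molecule of endothelial tight junctions that platelets also carry. It was at 1.68, 1.35 and 1.75 FPKM in the T2DM libraries, against 1.49, 1.65 and 1.39 FPKM in the vehicle libraries. The ratio of means was 1.06, with a 95% interval from 0.793 to 1.40 on the log2(FPKM + 0.01) scale. T2DM replicate 2 was lowest and replicate 3 highest, and the groups overlap.

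The pair of Tie receptors differed in the size of their ratios. Tie1 (chromosome 4, 118471191 to 118490061, minus strand) encodes the Tie receptor without a well-defined ligand of its own, which acts together with Tie2. It was at 1.05, 0.764 and 1.14 FPKM in the T2DM libraries, against 0.495, 0.706 and 0.433 FPKM in the vehicle libraries. The groups do not overlap, with T2DM replicate 2 and vehicle replicate 2 nearest to each other. The ratio of means was 1.80, and the log2 fold change was 0.36 (SE 0.12, limma unadjusted p = 0.0204, adjusted p = 0.0918).

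Tek (chromosome 4, 94739289 to 94874976, plus strand) encodes Tie2, the receptor of the angiopoietins. It was at 0.955, 0.973 and 1.63 FPKM in the T2DM libraries, against 0.801, 1.39 and 1.15 FPKM in the vehicle libraries. T2DM replicate 3 was the highest and vehicle replicate 1 the lowest, with the rest intermixed. Its ratio of means was 1.07, with a 95% interval from 0.654 to 1.72 on the log2(FPKM + 0.01) scale.

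Eng (chromosome 2, 32646595 to 32682669, plus strand) encodes endoglin, a co-receptor for ligands of the BMP and TGF-beta family. It was at 3.49, 1.81 and 3.20 FPKM in the T2DM libraries, against 1.42, 2.05 and 2.50 FPKM in the vehicle libraries. T2DM replicates 1 and 3 lay above every vehicle library, and T2DM replicate 2 lay inside the vehicle range. The ratio of means was 1.42, and the log2 fold change was 0.35 (SE 0.21, limma adjusted p = 0.280). It was 0.20 without vehicle replicate 1 and 0.56 without T2DM replicate 2. The gene overlaps Fpgs on the opposite strand, and the strand setting of the counting is not given in the sources used here.

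Emcn (chromosome 3, 137341067 to 137432185, plus strand) encodes endomucin, a sialomucin of the surface of capillary and venous endothelium. It was at 1.28, 1.01 and 0.942 FPKM in the T2DM libraries, against 0.678, 0.880 and 1.03 FPKM in the vehicle libraries. The groups overlap through vehicle replicate 3. Its mean was 1.25 times the vehicle mean, with a 95% interval from 0.846 to 1.86 on the log2(FPKM + 0.01) scale (limma adjusted p = 0.378 on the log2(FPKM + 1) scale).

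Vwf (chromosome 6, 125546774 to 125686679, plus strand) encodes von Willebrand factor, the clotting protein of Weibel-Palade bodies, which megakaryocytes also make. It was at 2.11, 1.50 and 1.74 FPKM in the T2DM libraries, against 1.37, 2.10 and 1.80 FPKM in the vehicle libraries. The 2 groups span nearly the same range. Its ratio of means was 1.02, with a 95% interval from 0.723 to 1.44 on the log2(FPKM + 0.01) scale.

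Erg (chromosome 16, 95359169 to 95586593, minus strand), the ETS factor, was the least abundant of the 10. It was at 0.749, 0.520 and 1.17 FPKM in the T2DM libraries, against 0.247, 0.317 and 0.394 FPKM in the vehicle libraries. Every T2DM library lay above every vehicle library. Its mean was 0.812 ± 0.327 FPKM in the T2DM group and 0.319 ± 0.0735 FPKM in the vehicle group (SD, n = 3 each), a ratio of 2.54. The log2 fold change was 0.44 (SE 0.15, limma unadjusted p = 0.0168, adjusted p = 0.0834) on the log2(FPKM + 1) scale and 1.27 on the log2(FPKM + 0.01) scale. Erg passed the filter of 0.5 FPKM only through the T2DM group, and without the filter its limma adjusted p was 0.0822. For Cldn5, Tie1 and Erg, a two-sided exact permutation test on FPKM gave p = 0.1, the smallest value that 3 against 3 libraries allow.

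**Figure D2:**
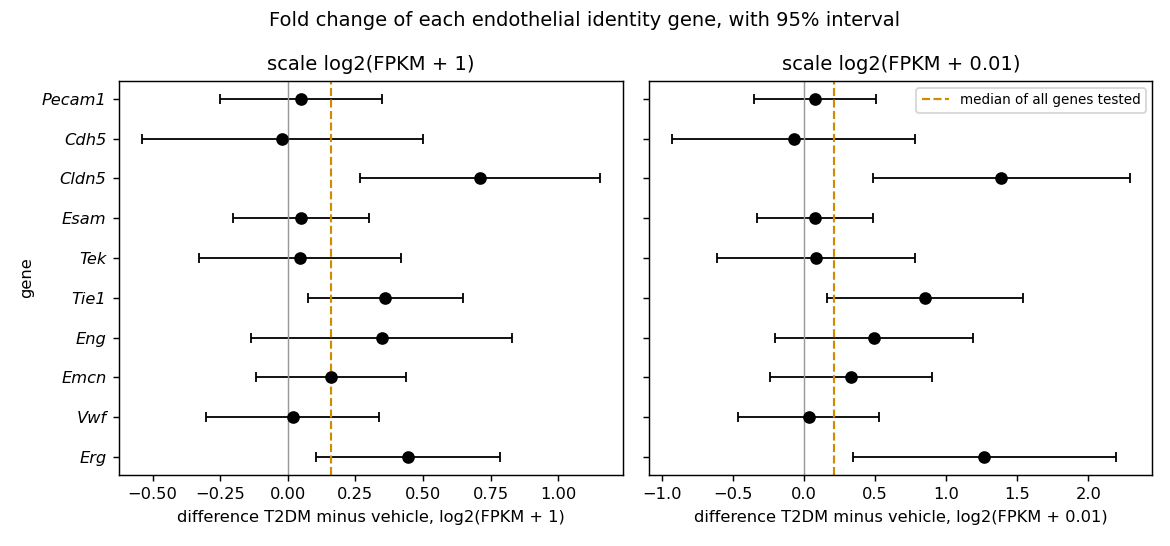
Difference between T2DM and vehicle means (points) with the 95% interval of limma (bars) for each gene, on the log2(FPKM + 1) scale at left and the log2(FPKM + 0.01) scale at right. The dashed line is the median of all genes tested, at 0.16 and 0.21, and the intervals of Cldn5, Tie1 and Erg are the 3 that lie wholly above 0 before adjustment over all genes.

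The directions of the genes with ratios near 1 depended on how the libraries were scaled. The deposited values carry a shift of all genes of 0.16 (log2), which moved to 0.37 when each library was scaled to the same total (TPM) and to 0.00 with median-of-ratios scaling. Under 5 other scalings, Cldn5, Tie1, Erg and Eng stayed positive in all 5, Emcn in 4, and Pecam1, Cdh5, Esam, Tek and Vwf in 2. The ratio of Cldn5 ran from 2.04 to 3.01, that of Erg from 2.03 to 3.04, that of Tie1 from 1.44 to 2.14 and that of Pecam1 from 0.863 to 1.25 over these scalings. Scaling to TPM, or to the total without the 10 most abundant genes, brought Cldn5, Erg and Tie1 under the adjusted p of 0.05. These scalings also called 28.6% and 27.6% of all genes tested higher, so 3 of 10 is close to the background there too.

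**Figure D3:**
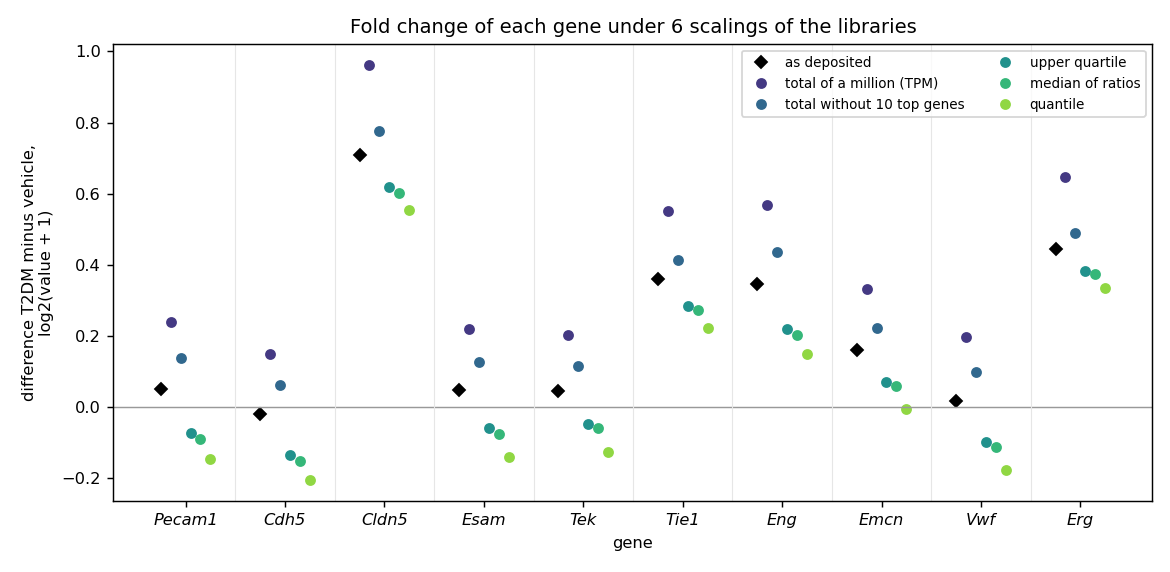
Difference between T2DM and vehicle means on the log2(value + 1) scale (vertical axis) for each gene, from the deposited FPKM (black diamonds) and after 5 other scalings of the libraries (coloured points). Cldn5, Tie1, Erg and Eng stay above 0 under all scalings, whereas Pecam1, Cdh5, Esam, Tek and Vwf lie on either side of 0, and Emcn is at -0.01 with quantile normalization.

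A ratio between genes of the same library does not depend on the scaling of that library. Each gene was therefore set against the geometric mean of the other 9. Relative to these, Cldn5 was higher in the T2DM group by 1.05, Erg by 0.93 and Tie1 by 0.45 on the log2 scale, with no overlap between the groups. For Cldn5 the log2 ratios were 0.65, 0.22 and -0.03 in the T2DM libraries, against -0.32, -0.32 and -1.65 in the vehicle libraries. For Erg they were -1.25, -1.25 and -0.61 in the T2DM libraries, against -2.08, -2.19 and -1.63 in the vehicle libraries. Tie1 was at -0.72, -0.63 and -0.65 in the T2DM libraries, against -0.97, -0.91 and -1.48 in the vehicle libraries. Each of the 3 was higher against the other endothelial identity genes in all T2DM libraries than in any vehicle library. The same 3 genes did not overlap on FPKM, so these ratios reuse those values and are not separate support. The share of all genes without overlap on such a ratio was not computed. Without vehicle replicate 3, the differences of Cldn5 and Tie1 were smaller, at 0.60 and 0.27.

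Cdh5 was lower relative to the other 9 by -0.59, Vwf by -0.47 and Esam by -0.42, also with no overlap, while Eng differed by 0.04 and Emcn by -0.14. The Cdh5 difference was -0.30 without T2DM replicate 2, the only library in which its ratio was below 0. Pecam1 differed by -0.42 and Tek by -0.41, with overlap. The exact permutation p, two-sided, was 0.1 for each of the 6 genes without overlap, the smallest possible, and 0.17 after Benjamini-Hochberg adjustment over the 10 genes. The 10 ratios are not independent, because a gene that is higher lowers the ratio of the others. Against the geometric mean of 17 other pan-endothelial genes, which holds no member, the differences were 1.08 for Cldn5, 0.97 for Erg and 0.54 for Tie1, again without overlap, and -0.40 for Cdh5, -0.29 for Vwf and -0.25 for Esam, now with overlap.

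**Figure D4:**
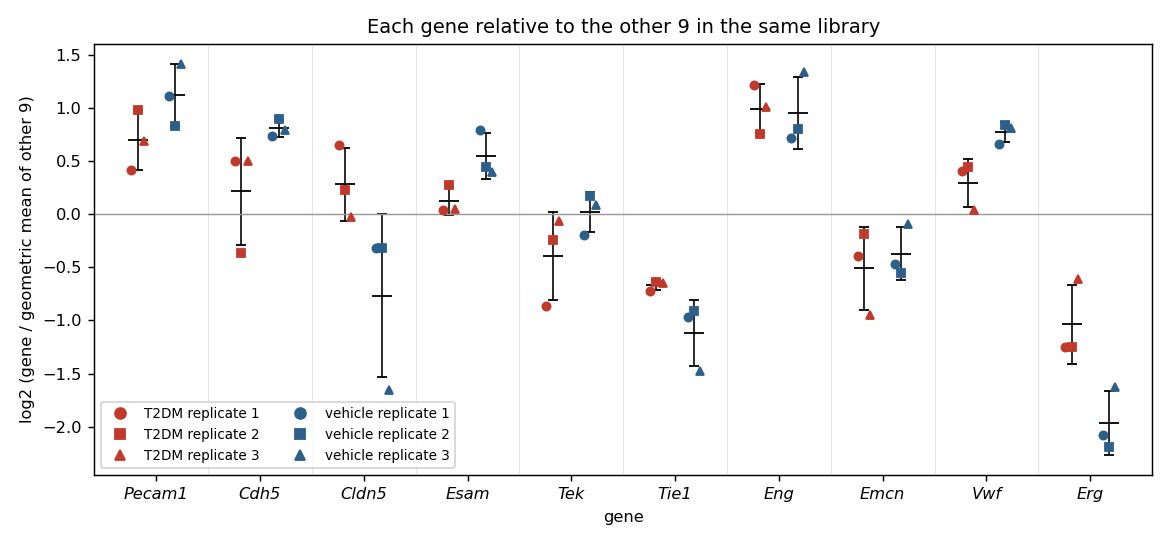
Log2 of each gene over the geometric mean of the other 9 genes in the same library (vertical axis), T2DM in red and vehicle in blue, with the mean and SD of each group (n = 3). Cldn5, Tie1 and Erg are higher in every T2DM library than in every vehicle library, and Cdh5, Esam and Vwf are lower.

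Between libraries, the 10 genes varied together only in part. Over the 45 pairs of genes, Pearson's r across the 6 libraries had a median of 0.57 and ran from -0.08 for Pecam1 with Cldn5 to 0.93 for Cldn5 with Tie1, and 26 pairs were above 0.5. The points share the depth of each library and the difference between groups. T2DM replicate 3 held the highest value for 5 of the genes and T2DM replicate 1 for 4, and vehicle replicate 1 held the lowest value for 6. The genes of the table whose profile over the 6 libraries was most like the mean of the standardised members were Slc25a45 (r = 0.999), Anapc11 (0.997), Fcrla (0.988), Nfatc1 (0.987) and Tcof1 (0.984). The 17 other pan-endothelial genes had a median r of 0.71 with that mean, beside 0.35 for all genes tested.

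Of these 17 other pan-endothelial genes, 0 were higher and 0 lower by limma's adjusted p. At an unadjusted p under 0.05, 2 were higher and 0 lower, beside 28.5% and 4.57% of all genes tested. Their median log2 fold change was 0.14. The VEGF receptor gene Flt1 was at 5.94, 3.03 and 3.04 FPKM in the T2DM libraries, against 1.88, 2.16 and 2.02 FPKM in the vehicle libraries (limma adjusted p = 0.0700). Rasip1, which acts in endothelial junctions and lumen formation, had means of 0.775 FPKM in the T2DM group and 0.334 FPKM in the vehicle group (adjusted p = 0.0560, or 0.0518 without the filter, which it passed only through the T2DM group). None of 6 capillary genes passed (0 at an unadjusted p), and the capillary list had a median of 0.03. Gpihbp1 and Car4, also on the capillary list, had no row in the deposited table. Rgcc of this list was at 54.3 FPKM in the T2DM group and 55.3 FPKM in the vehicle group, far above Pecam1 at 2.28 and 2.18 FPKM. Which cells of the gland the capillary list reads was not tested. None of 10 other endothelial transcription factors passed (2 higher and 0 lower at an unadjusted p, beside 28.5% and 4.57% of all genes tested). Foxo1 was nearest, at 3.46 ± 0.407 FPKM in the T2DM group and 2.34 ± 0.283 FPKM in the vehicle group (limma adjusted p = 0.0559).

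Genes of arteries and veins included a few that passed. Among all genes tested, 10.5% were higher at the adjusted p, the share to set beside the arterial and venous counts. The arterial list held 11 genes, of which 8 were in the table and 4 reached the filter of 0.5 FPKM. Of these 4 arterial genes tested, 2 were higher, and Hey1 and Sema3g did not pass (log2 fold changes of 0.54 and 0.06). Unc5b, Gja4, Fbln5 and Sox17 fell under the filter. Their means were 0.491, 0.444, 0.462 and 0.268 FPKM in the T2DM group, against 0.271, 0.275, 0.424 and 0.264 FPKM in the vehicle group. Bmx, a kinase gene of arterial endothelium, was at 2.03, 1.32 and 1.14 FPKM in the T2DM libraries, against 0.283, 0.561 and 0.345 FPKM in the vehicle libraries (limma adjusted p = 0.0241). It passed the filter only through the T2DM group, and without the filter its adjusted p was 0.0279. Efnb2, the arterial ephrin, was at 1.43, 1.54 and 0.981 FPKM in the T2DM libraries, against 0.562, 0.684 and 0.680 FPKM in the vehicle libraries (adjusted p = 0.0446). Of 4 venous genes tested, Vwf among them, 1 was higher, namely Ephb4, the venous receptor of Efnb2. It was at 4.11 ± 1.57 FPKM in the T2DM group and 1.94 ± 0.315 FPKM in the vehicle group (adjusted p = 0.0498). Nr2f2, Vcam1 and Vwf had log2 fold changes of 0.38, 0.37 and 0.02. Ackr1 and Selp fell under the filter, at 0.259 and 0.325 FPKM in the T2DM group and 0.249 and 0.318 FPKM in the vehicle group. Which cells of the gland these arterial and venous transcripts came from was not tested. With median-of-ratios scaling only Bmx kept its call (adjusted p = 0.0289). The arterial count of 2 was 0 without any one of vehicle replicates 1, 2 and 3 or T2DM replicate 1, and 1 without T2DM replicate 2. The venous count was 1 without T2DM replicate 2 and 0 without any one of the other libraries, without the filter or without a trend. None of 4 lymphatic genes passed (1 higher at an unadjusted p, beside 28.5% of all genes tested). Pdpn was at 9.12 FPKM in the T2DM group and 4.92 FPKM in the vehicle group (limma adjusted p = 0.0654). Thy1 was also higher, with a log2 fold change of 0.43. Lyve1, at 0.220 and 0.505 FPKM, and Reln, at 1.07 and 1.21 FPKM, were lower in the T2DM group (limma adjusted p = 0.313 and 0.586). Prox1, Flt4, Ccl21a and Mmrn1 were also on the lymphatic list but had no row in the deposited table.

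In the Tie pathway, which has 5 genes tested with Tek and Tie1 among them, none passed. At an unadjusted p under 0.05, 1 was higher and 1 lower, beside 28.5% and 4.57% of all genes tested. Angpt2, the ligand that counteracts Angpt1 at Tie2 in many settings, was at 0.546, 0.623 and 0.817 FPKM in the T2DM libraries, against 1.06, 1.21 and 1.40 FPKM in the vehicle libraries. The highest T2DM library was below the lowest vehicle library, as in 6.10% of all genes tested. The log2 fold change of Angpt2 was -0.42 (limma adjusted p = 0.0518, or 0.0428 with median-of-ratios scaling). With 1 library left out, its limma adjusted p reached 0.156. Ptprb, the phosphatase of Tie2, was at 0.914 FPKM in the T2DM group and 0.665 FPKM in the vehicle group, with an adjusted p of 0.347.

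In the pathway of endoglin, the longest of the lists, 21 genes of BMP and TGF-beta signalling were tested. Of these, 9 were higher and 0 lower, beside 10.5% and 1.70% of all genes tested, and their median log2 fold change was 0.41. Acvrl1, the type I receptor that signals with endoglin in endothelium, was at 2.94, 1.92 and 2.10 FPKM in the T2DM libraries, against 0.955, 1.09 and 1.52 FPKM in the vehicle libraries (limma adjusted p = 0.0448). Id3, a target of BMP signalling, was at 2.50 ± 0.635 FPKM in the T2DM group and 1.004 ± 0.367 FPKM in the vehicle group (adjusted p = 0.0327), and the related target Id2 was at 39.0 and 27.0 FPKM. The ligand genes Tgfb3, Tgfb2 and Bmp4, the co-receptor gene Tgfbr3 and the signal transducers Smad3 and Smad4 were the others that rose, with log2 fold changes from 0.41 for Smad4 to 0.74 for Tgfb3. Only Tgfb3 kept its call with median-of-ratios scaling (adjusted p = 0.0447). The count of 9 was 0 when vehicle replicate 1, vehicle replicate 3 or T2DM replicate 1 was left out, it was 1 without vehicle replicate 2, and it was 4 without T2DM replicate 2 or T2DM replicate 3. Most of these genes are also active in epithelium and stroma.

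Of 17 partners of endothelial junctions tested, 3 were higher and 0 lower, beside 10.5% and 1.70% of all genes tested. The 3 were Lsr, Ctnna1 and Cgn, with log2 fold changes of 0.53, 0.55 and 0.57. These encode a protein of tricellular junctions, alpha-catenin and cingulin, and all 3 are used by epithelium as well. None of the 3 passed with median-of-ratios scaling, and the count was 0 without vehicle replicate 3, 1 without vehicle replicate 2 or T2DM replicate 1, and 5 without T2DM replicate 2. Of 6 genes that store, release or clear Vwf, 0 were higher and 0 lower. At an unadjusted p, 1 was higher (Siglec1), beside 28.5% of all genes tested.

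**Figure D5:**
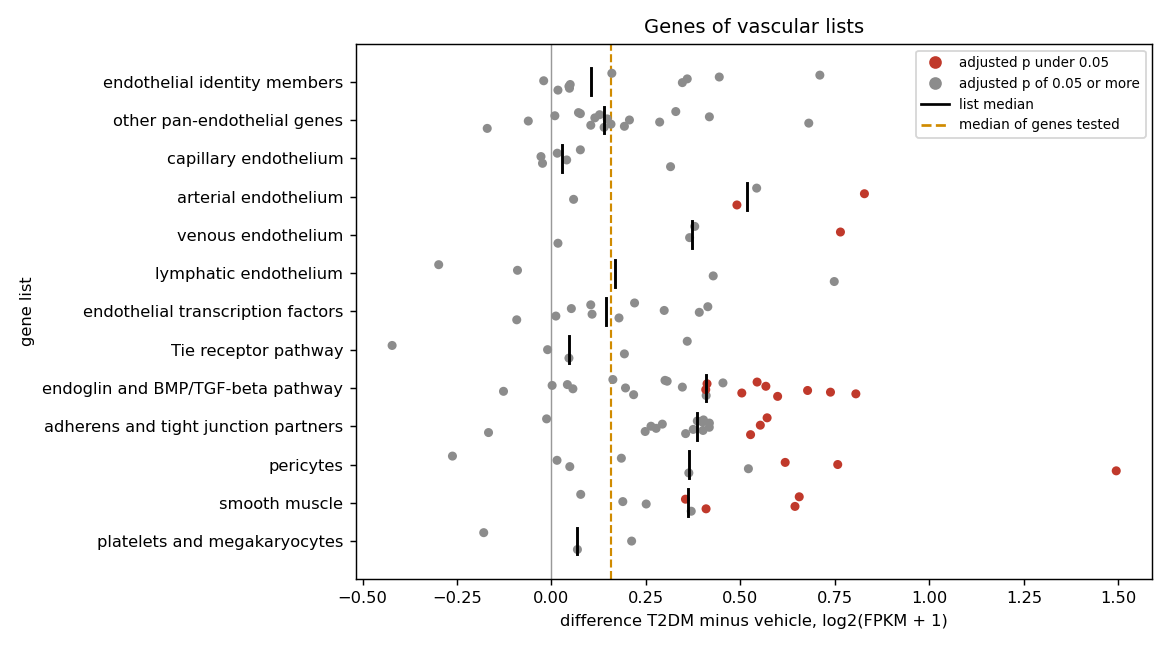
Difference between T2DM and vehicle means on the log2(FPKM + 1) scale for each tested gene of 13 vascular lists, red where limma's adjusted p was under 0.05, with the list median as a black bar and the median of all genes tested as a dashed line at 0.16. The endothelial identity genes hold no red point and have a median of 0.10. The endoglin pathway holds 9 among 21 genes, beside 10.5% higher among all genes tested.

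Some lists of other cell types of the gland differed between the groups, and their part in these results was not tested. The counts in this paragraph stand beside 10.5% higher and 1.70% lower among all genes tested. Of 9 fibroblast genes tested, 0 were higher and 0 lower, with a median log2 fold change of 0.01. Of 9 pericyte genes tested, 3 were higher (Rgs5, Notch3 and Anpep). The list summed to 77.0 to 112 FPKM in the T2DM libraries and to 49.3 to 59.9 FPKM in the vehicle libraries. Anpep made up most of this sum, with means of 68.4 FPKM in the T2DM group and 44.0 FPKM in the vehicle group. Of the genes that did not pass, Kcnj8, Pdgfrb and Abcc9 had log2 fold changes of 0.52, 0.36 and 0.18. Those of Mcam, Ndufa4l2 and Cox4i2 were 0.05, 0.01 and -0.26. Rgs5 was at 12.0 FPKM in the T2DM group and 3.54 FPKM in the vehicle group, and the pericyte count was 0 without vehicle replicate 3, 1 when T2DM replicate 1 or either of vehicle replicates 1 and 2 was left out, and 1 with median-of-ratios scaling. Of 8 smooth muscle genes, 4 were higher (Myh11, Mylk, Acta2 and Lmod1; 2 with median-of-ratios scaling), with sums of 154 to 175 FPKM in the T2DM libraries and 121 to 131 FPKM in the vehicle libraries, and the count of 4 was 0 when vehicle replicate 1, vehicle replicate 3 or T2DM replicate 1 was left out, 1 without vehicle replicate 2 and 2 without T2DM replicate 3. The haemoglobin genes Hbb-bs, Hba-a1 and Hba-a2 were lower, 3 of 5 erythrocyte genes, with sums of 196 to 317 FPKM in the T2DM libraries and 351 to 419 FPKM in the vehicle libraries. This count of 3 was 0 with any one library other than T2DM replicate 1 left out, 0 under TPM, 1 without the filter or without a trend, and 4 with median-of-ratios scaling.

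Platelets and leukocytes carry some of the same proteins. The counts for these cells and for duct and acinar genes stand beside 10.5% higher and 1.70% lower among all genes tested. Of 10 platelet genes, 3 were tested and 0 passed, with sums of 10.9 to 12.0 FPKM in the T2DM libraries and 8.66 to 12.0 FPKM in the vehicle libraries. Of 10 leukocyte genes, one of which (Itgam) has 2 rows, 2 were higher, the B cell genes Cd79a and Cd79b (0 without vehicle replicate 3 and 1 without any one of the rest except T2DM replicate 2), and the sums were 197 to 258 FPKM in the T2DM libraries and 162 to 346 FPKM in the vehicle libraries. Duct genes summed to 922 to 1172 FPKM in the T2DM libraries and to 646 to 703 FPKM in the vehicle libraries, with 6 of 10 higher (3 with median-of-ratios scaling and 10 under TPM). The 6 were Clu, Cldn4, Slc12a2, Krt18, Krt7 and Krt14. The keratin genes Krt18 (467 and 318 FPKM in the T2DM and vehicle groups) and Krt8 (296 and 241 FPKM) weighed most in this sum. Whether these genes mark duct cells only was not tested. Acinar genes summed to 144256 to 179297 FPKM in the T2DM libraries and to 179722 to 191723 FPKM in the vehicle libraries, with 3 of 10 lower (1 lower and 1 higher under TPM). The 3 were Lpo, Lcn11 and Scgb2b17. Bhlha15, Scgb1b2 and Pip had log2 fold changes of -0.29, -0.24 and -0.12. Those of Chrm3, Aqp5, Obp1a and Scgb2b2 were positive, at 0.40, 0.32, 0.05 and 0.04. With 1 library left out, the duct count ran from 1 (vehicle replicate 3) to 6 (T2DM replicate 3) and the acinar count from 0 (vehicle replicate 2 or 3) to 2 (T2DM replicate 1 or 3). Vehicle replicate 1, the lowest library for 6 endothelial identity genes, stood apart through salivary gland genes, which summed to between 4.13 and 17.0 FPKM in the T2DM libraries, to 2256 FPKM in vehicle replicate 1 and to 7.33 FPKM in the lowest vehicle library. Without this library the median log2 fold change of the 10 genes was 0.06, and Pecam1, Tek and Vwf turned to -0.03, -0.06 and -0.09, with no gene passing the adjusted p.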

How the data were processed

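Poly(A) RNA of 3 T2DM and 3 vehicle LG libraries was compared. The deposited FPKM per gene came from StringTie and Ballgown, which the authors ran after HISAT2 alignment (GRCm38) of reads that cutadapt had trimmed. The submitters' notes also name hg19, but the gene IDs are of mouse, and 11420 of 12491 genes start and end as in GENCODE M21. FPKM hold no read numbers, so the depth is unknown and the precision rests on the spread of 3 libraries. A rise of a few abundant genes lowers all others.

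The values were tested with limma 3.58.1 (R 4.3.3) on log2(FPKM + 1), with empirical Bayes and a mean-variance trend, no covariate and Benjamini-Hochberg adjustment over the 12135 genes that averaged 0.5 FPKM or more in either group. A log2 fold change is T2DM minus vehicle on that scale, which understates changes of low genes. Means and SDs are of FPKM. The code was tested on simulated data. Permutation tests used scipy 1.17.1.

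The members and lists were chosen with earlier results of these data known. Named genes were all 10 members, the list genes past the adjusted p or otherwise up to 3 with the smallest p, and the 5 genes most like the members in profile. The fits were repeated with other scalings, pseudocounts, filters and tests, with a replicate block, and without each library in turn. Count-based tests were not run, since the values are FPKM.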

Additional observations from a re-analysis of the deposited data

How the results depend on the processing

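No member passed limma's adjusted p with any single library left out, without a filter, with a pseudocount of 0.1 or 0.01, without a trend, in the linear model, or with median-of-ratios, upper-quartile or quantile scaling. With a filter of 1 FPKM, 1 member was higher (Cldn5, with Erg and Tie1 not tested, beside 11.9% of all genes). Cldn5 passed that filter only through the T2DM group, with a vehicle mean of 0.715 FPKM, and without a filter its limma adjusted p was 0.0563. The count of members higher was 3 when scaled to the same total (TPM, beside 28.6% of all genes). It was also 3 when scaled to the total without the 10 most abundant genes (beside 27.6%). The median log2 fold change of the 10 genes was -0.000510 with median-of-ratios scaling, -0.066 with quantile normalization and 0.06 to 0.21 with 1 library left out. With median-of-ratios scaling Pecam1 was at -0.090, Tek at -0.059, Esam at -0.075 and Vwf at -0.11. With upper-quartile scaling Pecam1 was at -0.073, Tek at -0.047, Esam at -0.060 and Vwf at -0.098. With quantile normalization Pecam1 was at -0.15, Tek at -0.13, Emcn at -0.0054, Esam at -0.14 and Vwf at -0.18. Cdh5 was at 0.15 when scaled to the same total (TPM) and at 0.062 when scaled to the total without the 10 most abundant genes. With 1 library left out, the log2 fold change ran from -0.035 to 0.15 for Pecam1, from -0.16 to 0.24 for Cdh5, from -0.094 to 0.14 for Tek, from -0.088 to 0.11 for Vwf, from 0.20 to 0.56 for Eng, from 0.087 to 0.22 for Emcn and from 0.55 to 0.84 for Cldn5 (adjusted p from 0.0527 to 0.145). The cause of these changes was not tested.

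Replicate numbers are shared between the groups, but same-numbered libraries did not deviate together (r = 0.03, 0.02 and -0.00 across genes). With a replicate block, 0 members passed, the median stayed at 0.10 and Cldn5 had a log2 fold change of 0.71 (limma adjusted p = 0.0791). All 10 genes stood at or under percentile 31.8 of the genes tested, their read numbers are unknown, and 3 libraries per group limit the precision. Tests that need counts, edgeR and DESeq2, were planned for the case of counts and not run.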
